A study of Homo sapiens with 6 samples.

Results

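KMT2A and AFF1, the genes joined by the translocation that defines the SEM leukemia line, and 8 genes whose proteins work beside the fusion protein were followed in cells that depended on wild-type CTCF (CTCF-WT) or on CTCF without its RNA-binding region (CTCF-dRBR). The 8 partners were MEN1, PSIP1, AFF4, MLLT1, MLLT3, ELL, DOT1L and MLLT10. The set was defined by gene symbol, by a rule that uses no measured value but was drawn up with earlier results of these data known, and each of the 10 was found as a single row among the 57820 genes listed. All 10 had at least 1 CPM (counts scaled to library size) in some library and were among the 14044 genes tested.

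SEM cells come from a B-cell acute lymphoblastic leukemia. In all 6 libraries the endogenous CTCF carried a miniAID-mClover3 tag, the cells expressed OsTIR1(F74G), and 24 h of 5-Ph-IAA removed the tagged protein. Doxycycline, present for the last 18 h at 1 ug/mL, switched on an HA-tagged CTCF, wild-type in 3 libraries and dRBR, from the TRE3G promoter, in 3. The genotype labels name the transgene only for CTCF-dRBR, so the wild-type transgene is taken from the titles and the methods. No label says that replicates came from separate cultures, so p-values measure the spread between these samples only.

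KMT2A is a histone methyltransferase that keeps developmental genes such as HOXA9 and MEIS1 active. In the fusion, its amino-terminal portion, which holds the attachment site for menin (the product of MEN1) and through menin for PSIP1, is joined to the carboxy-terminal portion of AFF1. AFF1 and its paralog AFF4 are scaffolds of the super elongation complex, in which ELL, the kinase P-TEFb and either of the paralogs MLLT1 and MLLT3 meet to release paused RNA polymerase. MLLT1 and MLLT3 also bind DOT1L, a histone methyltransferase that acts on transcribed genes, together with MLLT10. AFF1, AFF4, ELL, MLLT1, MLLT3 and MLLT10 are all known as KMT2A fusion partners in leukemia.

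In GRCh37, KMT2A (ENSG00000118058.16) lies at chr11:118307171-118397547 on the plus strand and AFF1 (ENSG00000172493.16) at chr4:87856154-88062191, also plus. Reads from a fusion transcript fall in the KMT2A row for its 5′ part and in the AFF1 row for its 3′ part, so at gene level the fusion and the intact alleles cannot be told apart. The annotated exons of KMT2A share 5755 bases with ENSG00000285827 on the same strand, a gene that has no row among the genes listed. The first 75 coding bases of KMT2A (exon 1, chr11:118307228-118307302, plus strand) are shown because they encode the amino-terminal end that the fusion retains and that menin contacts. Of these bases 84% were G or C.
KMT2A: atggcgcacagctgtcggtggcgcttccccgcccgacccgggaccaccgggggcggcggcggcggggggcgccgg

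MLLT1 and MLLT3 are shown because they are close paralogs whose log2 fold changes had opposite signs in limma-voom, and the same sign once the GC trend of each library was removed (0.31 and 0.56). MLLT1 (ENSG00000130382.7) lies at chr19:6210392-6279986 and MLLT3 (ENSG00000171843.11) at chr9:20341667-20622498, both on the minus strand. The sequences are the first 300 coding bases of each, read from the GRCh37 genome across exons 1 to 4, 5′ to 3′, with the bases that differ between the paralogs in capitals. They encode the start of the YEATS domain, the module of both proteins that reads acylated histones.
MLLT1: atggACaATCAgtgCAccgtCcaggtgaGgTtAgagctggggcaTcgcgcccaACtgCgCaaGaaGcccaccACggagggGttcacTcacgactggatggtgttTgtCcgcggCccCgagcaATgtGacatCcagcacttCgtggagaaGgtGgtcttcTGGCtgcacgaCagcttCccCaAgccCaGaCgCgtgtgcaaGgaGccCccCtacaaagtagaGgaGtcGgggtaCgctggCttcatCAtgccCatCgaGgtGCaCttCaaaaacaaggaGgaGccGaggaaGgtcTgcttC
MLLT3: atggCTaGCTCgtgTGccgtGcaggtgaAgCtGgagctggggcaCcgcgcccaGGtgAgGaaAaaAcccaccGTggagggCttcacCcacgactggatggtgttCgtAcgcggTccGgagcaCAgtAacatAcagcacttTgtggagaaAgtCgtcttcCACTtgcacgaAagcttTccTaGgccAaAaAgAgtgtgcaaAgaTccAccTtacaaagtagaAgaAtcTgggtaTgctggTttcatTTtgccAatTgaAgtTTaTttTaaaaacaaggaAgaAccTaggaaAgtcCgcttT

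Over these 300 bases the paralogs were 76.7% identical, and 82 of 100 codons encoded the same amino acid. Of the 70 bases that differed, 48 were at the third position of a codon. At 45 of them MLLT1 had G or C where MLLT3 had A or T, and at 16 the reverse. Over the whole coding sequence, 86.6% of the codons of MLLT1 and 47.0% of those of MLLT3 ended in G or C. The base composition is given because the libraries differed by it, as described next.

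Total expected counts ranged from 51732177 to 53166735 in CTCF-WT and from 30034505 to 50457168 in CTCF-dRBR, with CTCF-dRBR replicate 1 the shallowest. Across 13654 genes, the deviation of a library from the mean of all 6 was related to the GC content of the exons with a Spearman rho from 0.339 to 0.709 in CTCF-WT. In CTCF-dRBR replicates 1, 2 and 3 this rho was -0.78, -0.417 and 0.504. CTCF-dRBR replicate 1 was thus the lowest in depth and the most depleted in GC-rich genes, and values without it are given for the members. The leukemia identity was checked by markers: 7 of 8 B-lineage genes (all but DNTT) and all 5 markers of KMT2A-rearranged leukemia, HOXA9 and MEIS1 among them, were above 1 CPM in every library. All 5 T-lineage and all 4 erythroid markers were below 1 CPM in every library. Of 5 myeloid markers, LYZ and ITGAM were above 1 CPM in every library, and the summed level of the 5 was 10.5 to 10.8 CPM in CTCF-WT and 11.7 to 13.8 CPM in CTCF-dRBR. These 2 genes went opposite ways. ITGAM was at 4.01 to 4.66 CPM in CTCF-WT and 5.46 to 7.67 CPM in CTCF-dRBR, and LYZ at 6.14 to 6.36 CPM and 5.64 to 6.04 CPM. The 5 markers of KMT2A-rearranged leukemia summed to 1137 to 1320 CPM in CTCF-WT and to 1454 to 1557 CPM in CTCF-dRBR, and the 8 B-lineage markers to 873 to 966 CPM and 560 to 1009 CPM. PROM1 held most of the former sum, at 727 to 894 CPM in CTCF-WT and 989 to 1103 CPM in CTCF-dRBR. MEIS1 was also apart and higher in CTCF-dRBR, while HOXA9, RUNX2 and CSPG4 overlapped. CSPG4 was at 105, 106 and 75.5 CPM in CTCF-WT and at 25.5, 76.5 and 107 CPM in CTCF-dRBR. The part of these differences between libraries in the results that follow was not tested.

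No member passed an adjusted p of 0.05 in limma-voom or in edgeR's quasi-likelihood test, and neither did any other gene (0 of 14044 in limma-voom, 0%, with 3569 at an unadjusted p under 0.05, and 0 in edgeR, with 3462). MLLT3 was the 1 member among those 3569 genes (25.4%). Of the log2 fold changes (CTCF-dRBR against CTCF-WT), 6 of 10 were above 0, against 49.4% of all genes tested, and their median was 0.09, against -0.01 for all genes. Without CTCF-dRBR replicate 1, 4 of 10 were above 0 (48.7% of all genes) and the median was -0.026 (all genes -0.012), as AFF4 and MLLT10 became negative. The groups did not overlap for 2 of the 10, KMT2A and MLLT3, both with every CTCF-dRBR library higher. That is a smaller share than the 37.5% of all genes whose groups did not overlap in either direction, and 20% of all genes had every CTCF-dRBR library higher.

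**Figure D1:**
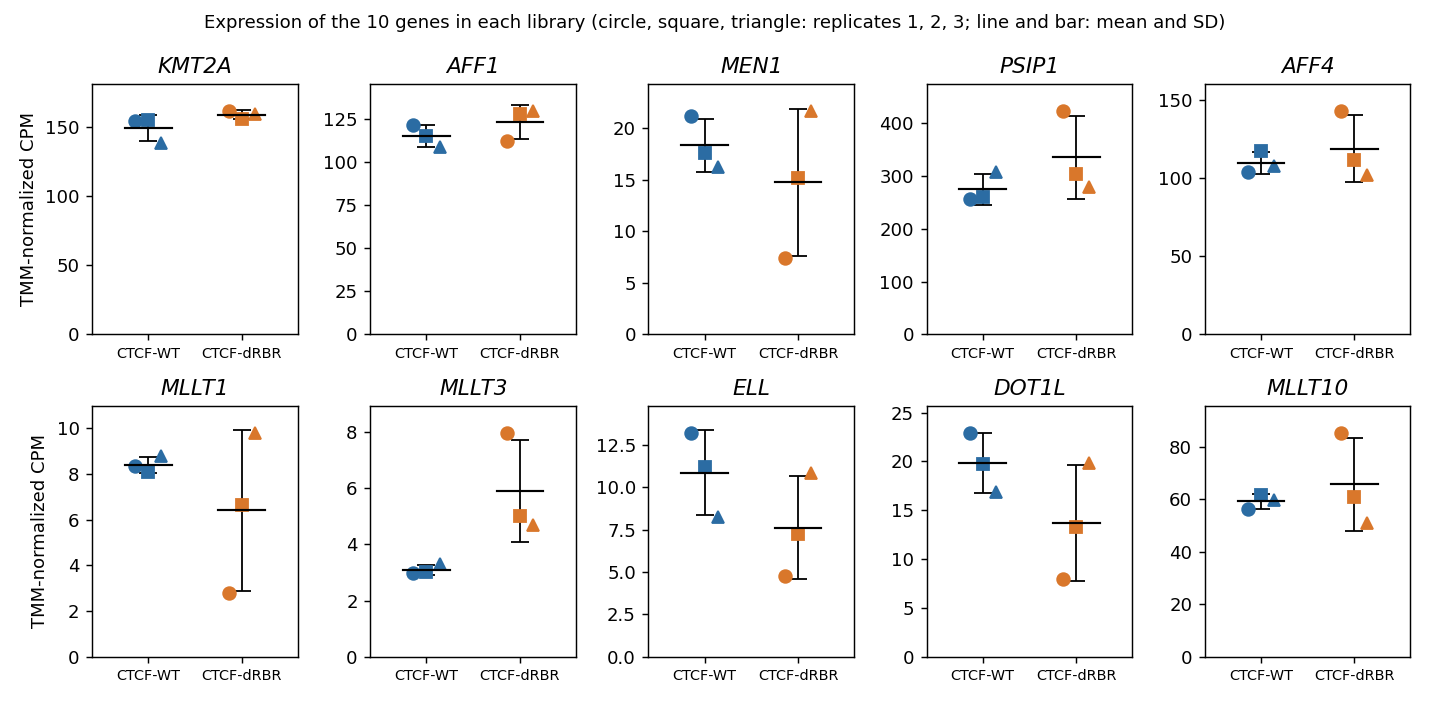
TMM-normalized CPM (vertical axes, linear from 0, a scale of its own for each gene) of the 10 genes in the 3 CTCF-WT and 3 CTCF-dRBR libraries, with circle, square and triangle for replicates 1, 2 and 3 and the mean with its SD as a line and bar. The groups are apart only for KMT2A and MLLT3. In CTCF-dRBR the circle, replicate 1, is the lowest for AFF1, MEN1, MLLT1, ELL and DOT1L. It is the highest for KMT2A, PSIP1, AFF4, MLLT3 and MLLT10.

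Levels of different genes were compared per length, as TPM rescaled over protein-coding genes. PSIP1, the chromatin reader also called LEDGF, was the most abundant of the 10 in all 6 libraries, with a mean of 230 TPM (SD 58.4, n = 6), and its range did not meet that of any other member. AFF1 (48.7 TPM), MLLT10 (38.8 TPM), AFF4 (29.4 TPM) and KMT2A (27.7 TPM) followed with ranges that overlapped from each to the next. KMT2A was above DOT1L in 6 of 6 libraries without overlap, from 22.1 to 32.7 TPM against 7.32 to 14.2 TPM. DOT1L (11.9 TPM), MEN1 (10.9 TPM), MLLT1 (6.45 TPM), ELL (4.48 TPM) and MLLT3 (2.59 TPM) made up the lower part of the order, and neighbors there overlapped. MLLT3, the least abundant on average, was above ELL in 2 of the 6 libraries, both of CTCF-dRBR.

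**Figure D2:**
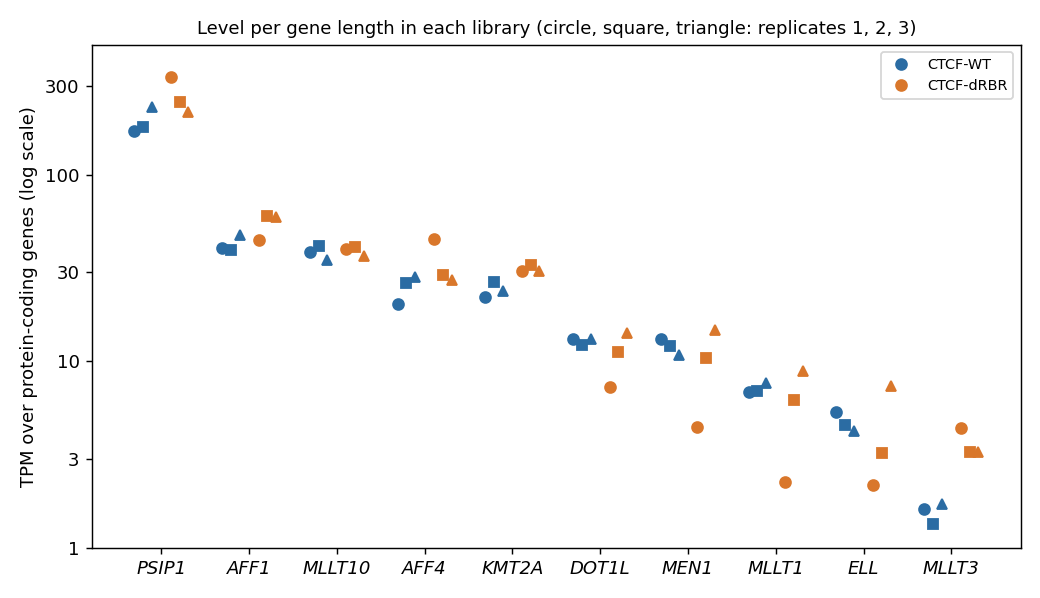
TPM rescaled over protein-coding genes (log axis) of the 10 genes in each library, in order of the mean over the 6 libraries, with circle, square and triangle for replicates 1, 2 and 3. PSIP1 stands above all others, AFF1, MLLT10, AFF4 and KMT2A follow with overlap between neighbors in that order, and the 5 from DOT1L to MLLT3 lie below KMT2A.

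KMT2A and AFF1, the fusion genes, had log2 fold changes near 0, and neither passed the test. KMT2A was at 154, 155 and 138 CPM in CTCF-WT (149 ± 9.44, SD, n = 3) and at 162, 155 and 159 CPM in CTCF-dRBR (159 ± 3.17). The groups did not overlap, but the lowest CTCF-dRBR library lay just above the highest CTCF-WT library. Its log2 fold change was 0.09 with a standard error of 0.089 (95% interval -0.12 to 0.31, adjusted p = 0.466, limma-voom), and the exact permutation test, two-sided, gave its smallest possible p of 0.1.

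AFF1 was at 121, 115 and 109 CPM in CTCF-WT and at 112, 128 and 130 CPM in CTCF-dRBR. The groups overlapped through CTCF-dRBR replicate 1, and without it every CTCF-dRBR library was higher (the groups then did not overlap for 3 of the 10 members and 47.8% of all genes). The log2 fold change of AFF1 was 0.10 with a standard error of 0.10 (95% interval -0.14 to 0.35, adjusted p = 0.487, limma-voom), and 0.16 without that library. Within libraries, the log2 ratio of AFF1 to KMT2A in CPM was -0.34, -0.42 and -0.35 in CTCF-WT and -0.53, -0.28 and -0.29 in CTCF-dRBR. The means of this ratio, -0.37 in both groups, differed by less than the spread between replicates, and without CTCF-dRBR replicate 1 the difference was 0.085.

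The deposited TPM placed both fusion genes, and MLLT3, higher in CTCF-dRBR without overlap, where 15.3% of all genes did not overlap and 13.1% had every CTCF-dRBR library higher. KMT2A was at 6.70, 9.50 and 12.57 TPM in CTCF-WT and at 19.21, 17.82 and 13.34 TPM in CTCF-dRBR, and AFF1 at 12.20, 14.16 and 25.01 TPM against 28.22, 32.83 and 25.92 TPM. On that scale the median of all genes tested was itself shifted by 0.44 (log2, CTCF-dRBR against CTCF-WT), and protein-coding genes held 30.2% to 52.4% of the TPM in CTCF-WT and 43.5% to 63.2% in CTCF-dRBR. With the TPM rescaled over protein-coding genes, KMT2A stayed apart (22.1, 26.5 and 24 against 30.4, 32.7 and 30.7 TPM) and AFF1 overlapped. On the rescaled values KMT2A and MLLT3 were apart, against 34.6% of all genes in either direction and 24% with every CTCF-dRBR library higher.

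Menin, the adaptor between KMT2A and PSIP1, was spread more narrowly in CTCF-WT than in CTCF-dRBR. MEN1 (ENSG00000133895.10, chr11:64570982-64578766, minus strand) was at 21.1, 17.6 and 16.2 CPM in CTCF-WT and at 7.42, 15.1 and 21.7 CPM in CTCF-dRBR. The CTCF-dRBR libraries covered the whole CTCF-WT range, with replicate 1 far below it and replicate 3 just above it. limma-voom gave a log2 fold change of -0.39 with a standard error of 0.36 (95% interval -1.26 to 0.49, adjusted p = 0.464), and -0.01 without CTCF-dRBR replicate 1.

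PSIP1 (ENSG00000164985.10, chr9:15464064-15510993, minus strand) was at 255, 260 and 307 CPM in CTCF-WT and at 423, 303 and 278 CPM in CTCF-dRBR. The groups overlapped, and CTCF-dRBR replicate 1 was the highest of the 6 libraries. For PSIP1 the log2 fold change was 0.27 with a standard error of 0.18 (95% interval -0.16 to 0.69, adjusted p = 0.327, limma-voom), and 0.08 without that library. The annotated exons of PSIP1 share 71 bases with SNAPC3 on the opposite strand. The authors' tables are named as stranded, which would keep such reads apart, but the counting setting is not given in the sources used here. HDGFRP2, the paralog of PSIP1, had a log2 fold change of -0.47 (SE 0.25, adjusted p = 0.251, limma-voom), -0.25 without CTCF-dRBR replicate 1 and 0.27 once the GC trend was removed.

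Among the members of the super elongation complex, MLLT3 differed most between the groups. It was at 2.97, 3.02 and 3.28 CPM in CTCF-WT (3.09 ± 0.167, SD, n = 3) and at 7.96, 5.02 and 4.68 CPM in CTCF-dRBR (5.89 ± 1.80). The groups were apart, and the gap remained between 3.28 and 4.68 CPM with replicate 1 set aside. The values rest on 146 to 174 expected counts in CTCF-WT and 238 to 259 in CTCF-dRBR.

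MLLT3, the YEATS reader also called AF9, had a log2 fold change of 0.86 with a standard error of 0.23 (95% interval 0.30 to 1.43). Its unadjusted p was 0.00924, the 919th smallest of the genes tested, and its adjusted p of 0.140 (limma-voom) missed the threshold. The exact permutation test gave 0.1, the smallest p that 3 libraries against 3 allow. The deposited TPM of MLLT3, 0.49, 0.48 and 0.90 in CTCF-WT and 2.76, 1.77 and 1.42 in CTCF-dRBR, were also apart.

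MLLT1 (ENL), its paralog, was at 8.33, 8.08 and 8.77 CPM in CTCF-WT (8.40 ± 0.350, SD, n = 3) and at 2.77, 6.67 and 9.80 CPM in CTCF-dRBR (6.42 ± 3.52). CTCF-WT libraries lay within 1 CPM of each other and CTCF-dRBR libraries on both sides of them, with 83 expected counts in replicate 1 and 505 in replicate 3. Its log2 fold change was -0.52 with a standard error of 0.42 (95% interval -1.53 to 0.50, adjusted p = 0.402, limma-voom), and -0.06 without CTCF-dRBR replicate 1.

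The balance between the paralogs was steady in CTCF-WT, where the log2 ratio of MLLT3 to MLLT1 in CPM was -1.49, -1.42 and -1.42. In CTCF-dRBR it was 1.52, -0.41 and -1.07, so that every library was above CTCF-WT but the spread was far wider. The means, -1.44 ± 0.038 and 0.014 ± 1.34 (SD, n = 3 each), differed by 1.46. Without CTCF-dRBR replicate 1 the mean in CTCF-dRBR was -0.74 and the difference was 0.70. The difference between the GC trends at the compositions of these genes, 38.3% for MLLT3 and 63.8% for MLLT1, was 1.2 on the same scale.

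AFF4 (ENSG00000072364.8, chr5:132211087-132299326, minus strand), the scaffold of the super elongation complex in most cells, was at 104, 117 and 108 CPM in CTCF-WT and at 143, 112 and 102 CPM in CTCF-dRBR. CTCF-dRBR replicate 1 was the highest and replicate 3 the lowest of the 6. AFF4 had a log2 fold change of 0.10 with a standard error of 0.14 (95% interval -0.25 to 0.45, adjusted p = 0.641, limma-voom). It was -0.04 without CTCF-dRBR replicate 1. The log2 ratio of AFF1 to AFF4 in CPM was 0.071 ± 0.14 in CTCF-WT and 0.063 ± 0.37 in CTCF-dRBR (SD, n = 3 each), a difference within the spread, and the difference was 0.20 without CTCF-dRBR replicate 1.

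ELL (ENSG00000105656.8, chr19:18553473-18632926, minus strand), an elongation factor of the complex, was at 13.2, 11.2 and 8.23 CPM in CTCF-WT and at 4.78, 7.23 and 10.9 CPM in CTCF-dRBR. Both groups were spread widely and met between 8.23 and 10.9 CPM. ELL had a log2 fold change of -0.54 with a standard error of 0.33 (95% interval -1.33 to 0.25, adjusted p = 0.296, limma-voom), and -0.27 without CTCF-dRBR replicate 1. Its paralogs had the opposite sign in that fit, although ELL itself was at 0.096 with the GC trend removed: ELL2 had a log2 fold change of 0.58 (SE 0.18, adjusted p = 0.151, limma-voom) and ELL3 of 0.45 (SE 0.12, adjusted p = 0.138). For ELL2 the CTCF-WT libraries were at 11, 12.5 and 12.8 CPM and the CTCF-dRBR libraries at 22.9, 17.2 and 15.6 CPM, without overlap. ELL3 was likewise apart, at 22 to 23.3 CPM and 28.5 to 34.6 CPM, and its exons share 1558 bases with ENSG00000262560 on the same strand, so that reads could be split between them, besides 622 with PDIA3 and 200 with SERF2 on the opposite strand.

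DOT1L (ENSG00000104885.13, chr19:2163932-2232577, plus strand), the histone methyltransferase recruited by MLLT1 and MLLT3, was at 22.9, 19.7 and 16.9 CPM in CTCF-WT and at 7.92, 13.3 and 19.9 CPM in CTCF-dRBR. The groups overlapped through CTCF-dRBR replicate 3. For DOT1L the log2 fold change was -0.58 with a standard error of 0.32 (95% interval -1.35 to 0.19, adjusted p = 0.260, limma-voom), and -0.28 without CTCF-dRBR replicate 1. Exons of DOT1L share 529 bases with PLEKHJ1 on the opposite strand, whose log2 fold change was -0.92 (adjusted p = 0.194, limma-voom).

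MLLT10 (AF10; ENSG00000078403.12, chr10:21813575-22032559, plus strand), a cofactor of DOT1L, was at 56.2, 61.7 and 59.9 CPM in CTCF-WT and at 85.3, 60.8 and 51.1 CPM in CTCF-dRBR. CTCF-dRBR held both the highest and the lowest library. Its log2 fold change was 0.09 with a standard error of 0.19 (95% interval -0.36 to 0.55, adjusted p = 0.730, limma-voom), and -0.09 without CTCF-dRBR replicate 1. MLLT6, its paralog, had a log2 fold change of -0.50 (SE 0.29, adjusted p = 0.274, limma-voom), and -0.25 without CTCF-dRBR replicate 1.

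The signs of the 10 differences followed the base composition of the genes. MEN1 (59.8% GC in its exons), MLLT1 (63.8%), ELL (59.5%) and DOT1L (62.8%) all had negative log2 fold changes, with a median of -0.53. Of all genes tested with a GC content above 50%, 84.5% were negative, with a median of -0.46. The 6 members below 50%, from PSIP1 at 38.0% to AFF1 at 45.9%, were all positive with a median of 0.10, while 28.4% of all genes in that range were negative and their median was 0.18. The members thus had the sign that most genes of like composition had.

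The GC-rich members also varied together from library to library. Across the 6 libraries, the 6 pairs among MEN1, MLLT1, ELL and DOT1L had Pearson correlations of log2 CPM from 0.859 to 0.983. The 24 pairs between them and the other 6 members ranged from -0.975 to 0.491, with a median of -0.848. After the GC trend of each library was subtracted, the 6 pairs ranged from -0.171 to 0.717 and the median of the 24 pairs was -0.018. These correlations are a description over 6 points that share libraries, group and composition.

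**Figure D3:**
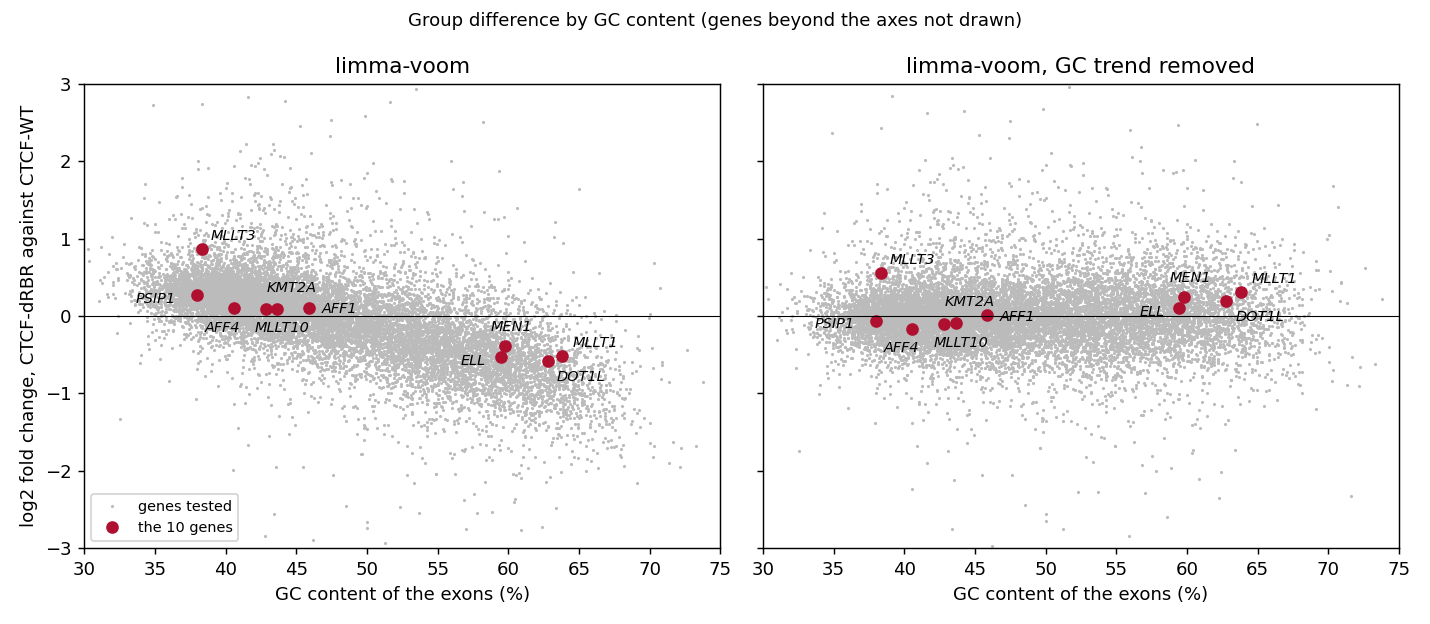
The log2 fold change (CTCF-dRBR against CTCF-WT, vertical axis) of every gene tested (grey) and of the 10 members (red, named) against the GC content of the exons in percent, before (left) and after (right) each library's GC trend was subtracted. The grey cloud slopes down on the left, with MEN1, MLLT1, ELL and DOT1L in its lower right, and is flat on the right, where MLLT3 has the largest value of the 10 at 0.56.

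With the GC trend removed, 8 of the 10 log2 fold changes changed sign, and MLLT3 and AFF1 kept theirs. MLLT3 then had a log2 fold change of 0.56 with a standard error of 0.12 (adjusted p = 0.0389, limma-voom) and was the 1 member called, against 9.24% of the 13654 genes with a GC content (3.97% higher and 5.27% lower). Its log2 CPM without the trend was 1.82, 1.79 and 1.78 in CTCF-WT and 2.55, 2.24 and 2.30 in CTCF-dRBR. MEN1 was also apart on that scale, at 3.89, 3.71 and 3.93 in CTCF-WT and 4.00, 4.09 and 4.20 in CTCF-dRBR, but was not called. KMT2A had a log2 fold change of -0.09 and its groups, apart in CPM, overlapped. The groups did not overlap for 2 of 10 members, against 39.3% of all genes on this scale.

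**Figure D4:**
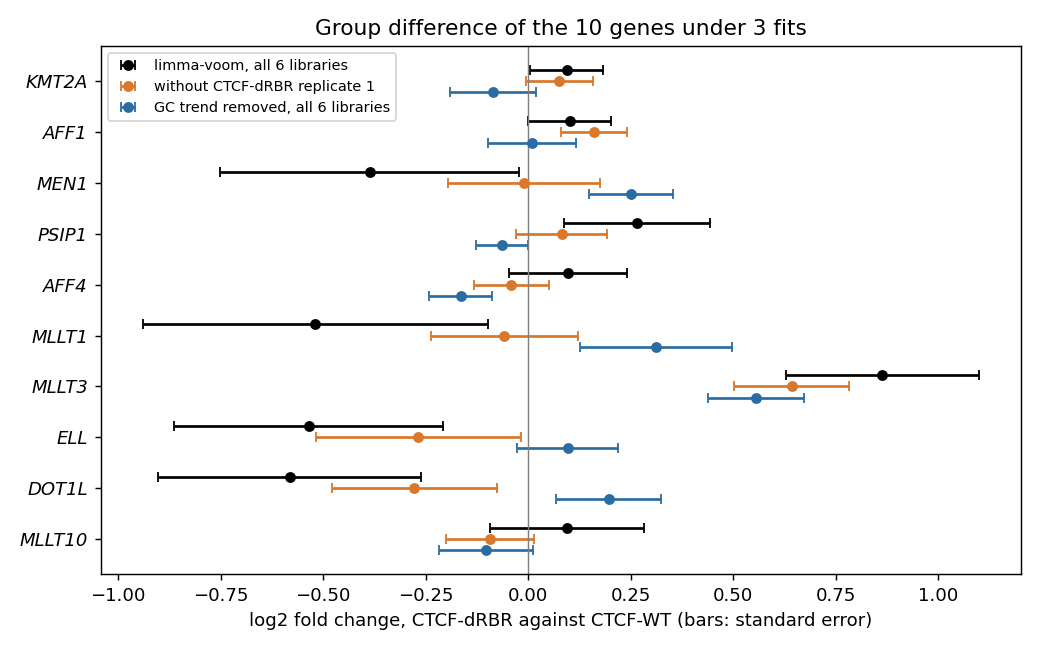
The log2 fold change (CTCF-dRBR against CTCF-WT, horizontal axis, bars for the standard error) of the 10 genes in limma-voom on all 6 libraries (black), without CTCF-dRBR replicate 1 (orange) and with the GC trend removed (blue). MLLT3 lies between 0.56 and 0.86 in all 3 fits, KMT2A and AFF1 stay within 0.2 of 0, and MEN1, MLLT1, ELL and DOT1L pass from negative to positive values.

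MLLT3 was called in more alternatives than any other member. Its log2 fold change was positive in all 20 alternatives, from 0.48 to 1.52, and it passed the threshold in 4 of them, with adjusted p-values from 0.00035 to 0.482 over the 20. The calls came with DESeq2 (0.93, adjusted p = 0.0194, where 11.5% of genes were called), with voomWithQualityWeights (0.73), and with the GC trend removed, with or without CTCF-dRBR replicate 1 (23.6% of genes called without it). Weighting the libraries by quality called 68.2% of all genes and 5 of the 10 members (AFF1, PSIP1 and MLLT3 higher, as were 32.5% of all genes, and ELL and DOT1L lower, as were 35.8%). In that fit CTCF-dRBR replicate 1 had a weight of 0.097 and CTCF-dRBR replicate 2 of 6.19.

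The members were read within a list of 52 genes of the same complexes and of related roles, the 10 members included. The list has 54 rows because KMT2B and PAGR1 have 2 rows each, and 53 of the rows were tested. None passed the adjusted threshold in limma-voom. At an unadjusted p under 0.05 in limma-voom, 5 were higher (9.4%) and 7 lower (13.2%). Of all genes tested, 1768 were higher (12.6%) and 1801 lower (12.8%). Among the 43 rows tested that are not members, 4 were higher (9.3%) and 7 lower (16.3%), with a median log2 fold change of -0.20. The median log2 fold change of the list was -0.19, and -0.01 for all genes.

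In the super elongation complex, 8 of 12 genes tested were positive, with a median of 0.25, against 49.4% positive among all genes. Without CTCF-dRBR replicate 1, 7 of 12 were positive with a median of 0.10, against 48.7% of all genes. Of the 12, MLLT3, ELL2, ELL3 and EAF2 were higher at an unadjusted p under 0.05, or 33.3%, against 12.6% of all genes. MLLT3, ELL2 and EAF2 had 38.3% to 38.6% GC in their exons and ELL3 51.6%. Of all genes tested below 50% GC, 71.6% were not negative. Once the GC trend was removed, the median of the 12 was 0.22 (all genes -0.01). In that fit 1 of the 12, MLLT3, was called, against 9.24% of all genes. AFF3, a further scaffold paralog, had a log2 fold change of 0.27 (adjusted p = 0.259, limma-voom), and AFF2, another, had too few counts to be tested. CDK9, the kinase subunit of P-TEFb, was at -0.38 (adjusted p = 0.283), and at -0.17 without CTCF-dRBR replicate 1 and 0.21 once the GC trend was removed. The fusion genes had a median of 0.10. The 5 genes listed with the DOT1L complex, the ubiquitin ligases RNF20 and RNF40 among them, had a median of -0.50, and of -0.25 without CTCF-dRBR replicate 1. Once the GC trend was removed it was 0.068, over the 4 of them with a GC content, which MLLT6 lacked. The median of the 5 genes that control P-TEFb was -0.48 (-0.41 without CTCF-dRBR replicate 1 and -0.32 once the GC trend was removed). Of the latter, MEPCE, which caps the inhibitory 7SK RNA, had a log2 fold change of -1.0 (adjusted p = 0.160), and LARP7, which binds the same RNA, of 0.35. Without CTCF-dRBR replicate 1, MEPCE was at -0.67 and LARP7 at 0.059.

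The KMT2 family and its shared subunits gave 6 positive values in 20 rows, against 49.4% positive among all genes. KMT2B and PAGR1 hold 2 of these rows each. The median was -0.42, and -0.34 without CTCF-dRBR replicate 1. Over the 17 rows with a GC content it was -0.15 once the GC trend was removed. KMT2B, the closest paralog of KMT2A, had values of -0.78 and -1.02 in its 2 rows, which share reads (adjusted p = 0.232 and 0.210, limma-voom), and of -0.41 and -0.64 without CTCF-dRBR replicate 1. WDR5, a subunit of every KMT2 complex, was at 70.8, 71.5 and 68.0 CPM in CTCF-WT and at 40.1, 47.7 and 54.0 CPM in CTCF-dRBR, without overlap. Its log2 fold change was -0.56 with a standard error of 0.13 (adjusted p = 0.116), and -0.47 without CTCF-dRBR replicate 1 (adjusted p = 0.0463, in a fit that called 3.9% of all genes and no member). WDR5, with 57.6% GC in its exons, was not called with the GC trend removed. HCFC2, a host cell factor, had the smallest unadjusted p of the family's positive values, with a log2 fold change of 0.66 (adjusted p = 0.189), and of 0.41 without CTCF-dRBR replicate 1.

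ASH2L, a shared subunit that stimulates KMT2 methyltransferases, is named because of its values. It was at 111, 130 and 115 CPM in CTCF-WT and at 93.4, 59.3 and 54.3 CPM in CTCF-dRBR. The groups did not overlap in CPM, but did in the deposited TPM. They also overlapped in rescaled TPM, at 78.5, 97.1 and 94.2 TPM in CTCF-WT against 89.8, 61.4 and 45 TPM in CTCF-dRBR. In CPM, CTCF-dRBR replicate 1 was here the library nearest to CTCF-WT. ASH2L had a log2 fold change of -0.85 (adjusted p = 0.126, limma-voom), -1.07 without that library (adjusted p = 0.0214) and -0.93 with the GC trend removed (adjusted p = 0.0348).

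RNF40, a ubiquitin ligase for histone H2B that was listed with the DOT1L complex, had a log2 fold change of -0.56 (adjusted p = 0.186, limma-voom). Its partner RNF20, listed there too, was at 0.11. Without CTCF-dRBR replicate 1 they were at -0.35 and -0.0044, and once the GC trend was removed at 0.15 and -0.012. In the PAF1 complex, which travels with elongating polymerase and binds KMT2A, WDR61 had a log2 fold change of -0.30 (adjusted p = 0.160) and LEO1 of 0.36 (adjusted p = 0.291), the latter at 0.15 without CTCF-dRBR replicate 1. With the GC trend removed, 49 listed rows were tested, of which 1 was called higher (MLLT3) and 4 lower: ASH2L, RBBP5, MEPCE and CDC73. Of all genes in that fit, 3.97% were called higher and 5.27% lower, 9.24% together.

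**Figure D5:**
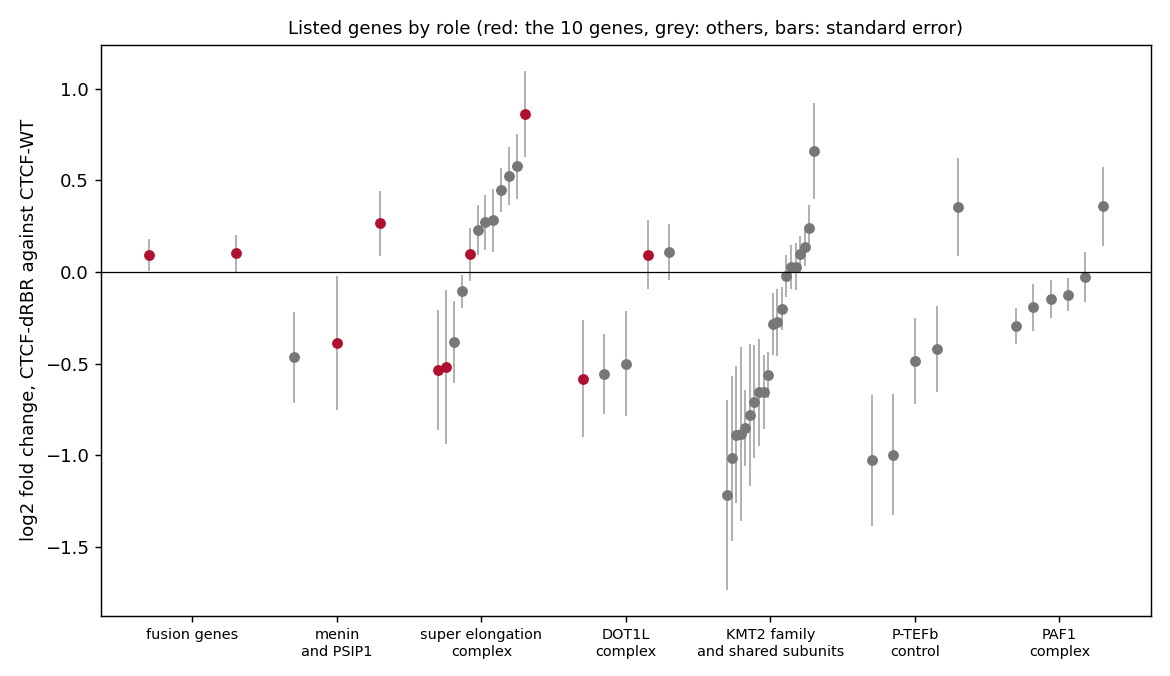
The log2 fold change (CTCF-dRBR against CTCF-WT, limma-voom, bars for the standard error) of the 53 listed genes tested, sorted by value within each role, with the 10 members in red and the others in grey. MLLT3 at 0.86 is the highest point and 8 of the 12 genes of the super elongation complex are above 0, while most of the KMT2 family are below it.

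Among 8716 protein-coding genes with a mean of at least 10 CPM, those whose log2 CPM over the 6 libraries was most like that of KMT2A were ACVR2B (Pearson r = 0.953), S100A13 (0.937) and KIAA1147 (0.917). For AFF1 they were PIM1 (0.980), MDM4 (0.970) and STARD9 (0.970). These are the highest of many correlations over 6 points and serve as a description.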

How the data were processed

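The 6 libraries, 3 of each group, were made from total RNA. The authors trimmed the reads with Trim Galore 0.6.3, aligned them to GRCh37 with STAR 2.7.9a and quantified genes with RSEM 1.3.1. The deposited expected counts, the reads RSEM assigned to each gene, are not normalized. The deposited TPM were scaled by the authors over all genes, small RNAs included. The labels give single-end and the methods paired-end reads.

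Genes were kept where any library had at least 1 CPM, and groups were compared by limma-voom (limma 3.58.1, R 4.3.3) after TMM normalization (edgeR 4.0.16), with no covariate, in two-sided tests with Benjamini-Hochberg adjustment over 14044 genes. CPM are TMM-normalized. Single values were compared by exact permutation tests of the difference in means, for which 3 libraries against 3 cannot go below 0.1. TPM were rescaled over protein-coding genes for levels per length. The GC trend of each library was fitted by loess (span 0.5, degree 2) on log2 CPM with a prior count of 1 and subtracted. Exon GC content, coordinates and coding sequences came from the GRCh37 genome and a Gencode annotation lifted to it. Scripts were tested on simulated data.

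Other fits used DESeq2 1.42.0 and the quasi-likelihood test of edgeR (expected counts rounded for both), voomWithQualityWeights, other scalings and filters, limma-trend on log2 TPM with a pseudocount of 1 or 0.1 for genes of at least 1 TPM in some library, GC trend removal, a replicate block and leaving out each library. The members and lists were chosen with earlier results of these data known. Named were all 10 members, the paralogs of members, in each role the gene with the smallest unadjusted p in each direction, and the 3 genes most like KMT2A and AFF1. ASH2L, EAF2, RBBP5 and CDC73 fall outside this rule and were named after their values were seen.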

Additional observations from a re-analysis of the deposited data

How the results depend on the processing

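The count of genes past an adjusted p of 0.05 was 0 of 14044 in limma-voom and 0 in edgeR's quasi-likelihood test (3569 and 3462 at an unadjusted p under 0.05). It was 1619 with DESeq2, 9583 with voomWithQualityWeights, 1261 with the GC trend removed, 3151 with the GC trend removed and without CTCF-dRBR replicate 1, and 28, 85 and 4 with limma-trend on log2(TPM + 1), on log2(TPM + 0.1) and on rescaled TPM. Of the 10 members, 1 was called with DESeq2 and in both GC-corrected fits, and 5 with voomWithQualityWeights. Of the 53 list entries tested, 8 were called with DESeq2 and 39 with quality weights, against 11.5% and 68.2% of all genes. Of the 49 with a GC content, 5 were called with GC removal, against 9.24% of all genes. GC removal without CTCF-dRBR replicate 1 called 10 of the 49, against 23.6% of all genes. Leaving out 1 library gave 0 to 535 genes, 0 members and 0 to 2 list genes, where only the fit without CTCF-dRBR replicate 1 was above 0. The cause was not tested.

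Signs of log2 fold changes differed from limma-voom as follows. With voomWithQualityWeights AFF4 was -0.038 and MLLT10 -0.0078. On log2(TPM + 1) and log2(TPM + 0.1), MEN1 was 0.030 and 0.023, ELL 0.098 and 0.12, and DOT1L 0.15 and 0.18. With the GC trend removed, KMT2A was -0.085, MEN1 0.25, PSIP1 -0.064, AFF4 -0.16, MLLT1 0.31, ELL 0.096, DOT1L 0.20 and MLLT10 -0.10. The same without CTCF-dRBR replicate 1 gave KMT2A -0.016, MEN1 0.30, PSIP1 -0.087, AFF4 -0.17, MLLT1 0.32, ELL 0.030, DOT1L 0.086 and MLLT10 -0.19. Leaving out 1 library gave AFF4 -0.041 to 0.20 and MLLT10 -0.092 to 0.26. AFF1 and MLLT3 kept their sign in all 20 alternatives.

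Replicates with the same number did not deviate together (correlations -0.341, 0.0993 and -0.471). With 3 libraries per group that also differ by GC trend, these values cannot settle whether the numbers pair the samples. A replicate block called 0 genes (1423 at an unadjusted p under 0.05) and no member. The block with the GC trend removed called 0 genes and gave KMT2A -0.086, MEN1 0.25, PSIP1 -0.063, AFF4 -0.16, MLLT1 0.29, ELL 0.10, DOT1L 0.20 and MLLT10 -0.094.

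Members whose groups did not overlap numbered 2 in CPM, 3 in deposited TPM, 2 in rescaled TPM and 2 with the GC trend removed. The shares of all genes were 37.5%, 15.3%, 34.6% and 39.3%, in that order. Without CTCF-dRBR replicate 1 the number of members was 3, against 47.8% of all genes. That setting was chosen after seeing the data, as it was for the ratios between members and the medians and counts by role. Depth limits the least abundant members, with 83 expected counts of MLLT1 in CTCF-dRBR replicate 1 and 146 of MLLT3 in CTCF-WT replicate 1.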
